A study of Mus musculus with 8 samples.

Results

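The Vmn2r genes of the mouse were examined in 8 lists of Cut & Tag peaks from brown adipocytes with and without Cars2. Members were all protein-coding genes on chromosomes 1 to 19 of the GRCm38 (mm10) annotation whose symbol begins with Vmn2r, which gave 123 of 20665 autosomal protein-coding genes. Vmn2r122 could not be placed, because its listed coordinates fall in the first 3 Mb of its chromosome, which hold no sequence in the assembly, and 122 of 20560 placed genes were analysed. The rule used symbols only, but the family was picked with earlier results of these data known. Vmn2r-ps130 is annotated as protein-coding in spite of its symbol and was kept. A gene counted as having a peak in a list when at least 1 base of a peak fell inside it or no more than 10 kb outside it.

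Vmn2r genes encode the V2R receptors, class C G protein-coupled receptors with a large extracellular domain, which sit on sensory neurons in the basal layer of the vomeronasal organ and detect peptide and protein pheromones. The neurons signal through the G protein subunit Gnao1 and the channel Trpc2. Most V2R neurons express a receptor from one of the larger subfamilies together with a receptor of the small family C, Vmn2r1 to Vmn2r7, and many genes of the family stand in tandem clusters next to recent copies and pseudogenes. EBF2 is a transcription factor that marks and specifies brown adipocytes, and H3K27ac is acetylation of histone H3 at lysine 27, found at active promoters and enhancers.

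The cells were brown adipocytes (BAC). Their precursors were taken from interscapular brown adipose tissue of Cars2 flox/flox newborns and immortalized with SV40 large T antigen. They were infected with a retrovirus carrying either an empty vector (Vec, labelled WT) or Cre recombinase (Cre, labelled CarS2-KO), so that every group carried the flox alleles and the T antigen, and were differentiated before harvest. Each antibody, EBF2 or H3K27ac, was applied to 2 Vec and 2 Cre libraries of 50000 cells each, and no control list was among the 8. Peak names inside 2 of the lists read WT (EBF2 Vec replicate 1) and Cars2AKO (EBF2 Cre replicate 1), the same genotypes as the labels, though AKO is elsewhere the study's term for mice that lack Cars2 in adipocytes, and what it stands for in these names is not given in the sources used here. The labels were followed. Nothing in the labels says that the 2 libraries of a group came from separate cultures, so p-values measure only the spread between these libraries.

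The lists held 533 to 902 peaks and carried no read counts, so depth is unknown. EBF2 Vec replicate 2 stood apart, with the fewest peaks (533) and the least covered sequence (81.2 Mb, against 104 to 115 Mb in the other 7 lists). A deletion in Cars2 cannot be read from peak lists. None of the 13 brown adipocyte markers looked up, among them Ucp1, Cidea, Prdm16 and Ebf2, and none of the 8 vomeronasal sensory neuron markers, among them Omp and Trpc2, had a peak within 10 kb in any list, where 7.76% of all protein-coding genes had one in at least 1 list. The study, in contrast, reports binding of EBF2 at Ucp1 by Cut & Tag, reduced in Cars2-knockout cells. The peak lists do not show that binding. With depth unknown, the markers cannot be called unbound, and the reason for the difference was not tested.

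Of the 122 Vmn2r genes, 28 (23.0%) had a peak in at least 1 list and 9 (7.38%) had a peak in all 8, against 7.76% and 2.88% of all protein-coding genes. With a window of 50 kb, 14 (11.5%) had a peak in all 8, against 3.81% of all. The remaining 94 had no peak within 10 kb, and the nearest they came to one was 20.2 kb. The 9 genes with a peak in every list were Vmn2r6, Vmn2r20, Vmn2r21, Vmn2r22, Vmn2r35, Vmn2r39, Vmn2r40, Vmn2r46 and Vmn2r-ps130. By antibody, 21 of the 28 genes (75.0%) had a peak in lists of both, against 56.5% of the 1596 protein-coding genes with a peak in any list. A further 4 (14.3%, against 2.32%) had one in EBF2 lists only (Vmn2r37, Vmn2r43, Vmn2r48 and Vmn2r113) and 3 (10.7%, against 41.2%) in H3K27ac lists only (Vmn2r30, Vmn2r55 and Vmn2r56).

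Promoters of closely related receptor genes are shown here, so that genes with unlike numbers of lists can be set side by side with their sequences. The sequences are RefSeq's for GRCm38.p6, from 250 bases before to 50 bases after the annotated start, read 5′ to 3′ on the gene's strand. A promoter was found for 116 of the 122 genes. Vmn2r6 (chr3:64559769-64560068, minus strand), with a peak in 8 lists, and Vmn2r7 (chr3:64719553-64719852, minus strand), with a peak in 0, are both family C receptors and differ at 2 of 300 bases, printed in capitals.
Vmn2r6: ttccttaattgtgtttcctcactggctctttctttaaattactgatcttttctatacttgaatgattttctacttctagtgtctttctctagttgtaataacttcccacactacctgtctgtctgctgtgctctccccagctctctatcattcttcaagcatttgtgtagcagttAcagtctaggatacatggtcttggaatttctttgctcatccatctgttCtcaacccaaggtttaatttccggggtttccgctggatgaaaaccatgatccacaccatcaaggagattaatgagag
Vmn2r7: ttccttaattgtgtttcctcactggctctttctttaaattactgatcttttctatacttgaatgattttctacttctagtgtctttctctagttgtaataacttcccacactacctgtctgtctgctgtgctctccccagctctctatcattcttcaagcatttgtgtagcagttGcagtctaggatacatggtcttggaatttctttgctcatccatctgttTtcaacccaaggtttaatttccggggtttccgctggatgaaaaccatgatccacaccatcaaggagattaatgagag

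Vmn2r20 (chr6:123418012-123418311, minus strand) and Vmn2r22 (chr6:123650586-123650885, minus strand) lie at the ends of the same block of peaks and both counted in 8 lists. Their promoters differ at 12 bases, in capitals, and only that of Vmn2r20 lay under a peak, in all 8 lists, where that of Vmn2r22 lay under none.
Vmn2r20: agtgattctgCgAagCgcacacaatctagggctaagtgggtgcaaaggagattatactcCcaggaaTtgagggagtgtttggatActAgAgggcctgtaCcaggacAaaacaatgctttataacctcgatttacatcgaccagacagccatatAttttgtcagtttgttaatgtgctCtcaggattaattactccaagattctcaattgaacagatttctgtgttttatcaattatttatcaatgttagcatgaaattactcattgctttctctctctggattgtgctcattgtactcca
Vmn2r22: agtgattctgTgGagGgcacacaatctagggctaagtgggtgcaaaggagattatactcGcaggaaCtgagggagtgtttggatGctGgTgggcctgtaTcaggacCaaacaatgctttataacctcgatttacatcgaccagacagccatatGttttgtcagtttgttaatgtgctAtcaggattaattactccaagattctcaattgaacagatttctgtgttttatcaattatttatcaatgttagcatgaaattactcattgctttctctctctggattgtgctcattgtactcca

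Vmn2r-ps130 (chr17:23061117-23061416, plus strand), with a peak in 8 lists, and Vmn2r113 (chr17:22942934-22943233, plus strand), with a peak in 1 list, differ at 7 bases and 4 gap positions, in capitals.
Vmn2r-ps130: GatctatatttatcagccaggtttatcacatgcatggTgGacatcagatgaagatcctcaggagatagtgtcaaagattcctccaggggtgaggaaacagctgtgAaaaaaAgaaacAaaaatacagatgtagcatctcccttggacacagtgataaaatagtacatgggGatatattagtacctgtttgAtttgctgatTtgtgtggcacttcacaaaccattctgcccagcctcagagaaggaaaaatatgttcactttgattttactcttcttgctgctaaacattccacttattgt
Vmn2r113: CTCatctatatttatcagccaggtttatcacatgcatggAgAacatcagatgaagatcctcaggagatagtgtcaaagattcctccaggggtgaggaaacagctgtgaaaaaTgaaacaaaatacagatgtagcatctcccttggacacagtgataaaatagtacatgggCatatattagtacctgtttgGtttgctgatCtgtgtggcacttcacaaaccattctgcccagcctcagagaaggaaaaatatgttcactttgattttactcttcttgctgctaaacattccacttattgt

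On chromosome 7, Vmn2r34 (chr7:7689349-7689648, minus strand) had a peak in 6 lists and Vmn2r45 (chr7:8488910-8489209, minus strand) in 3, and their promoters are identical, shown once. Vmn2r32 (chr7:7479924-7480223, minus strand) with 6 lists and Vmn2r49 (chr7:9992090-9992389, minus strand) with 0 are identical as well. Vmn2r35 (chr7:7819818-7820117, minus strand) had a peak in 8 lists. Capitals in these 3 mark the letters CCCNNGGG, taken up again with the motifs below.
Vmn2r34 and Vmn2r45: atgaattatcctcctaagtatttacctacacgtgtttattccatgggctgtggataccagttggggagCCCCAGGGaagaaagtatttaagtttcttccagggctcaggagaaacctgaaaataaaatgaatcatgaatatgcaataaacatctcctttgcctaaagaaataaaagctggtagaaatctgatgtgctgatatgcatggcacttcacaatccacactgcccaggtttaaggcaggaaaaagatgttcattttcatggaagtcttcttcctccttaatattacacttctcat
Vmn2r32 and Vmn2r49: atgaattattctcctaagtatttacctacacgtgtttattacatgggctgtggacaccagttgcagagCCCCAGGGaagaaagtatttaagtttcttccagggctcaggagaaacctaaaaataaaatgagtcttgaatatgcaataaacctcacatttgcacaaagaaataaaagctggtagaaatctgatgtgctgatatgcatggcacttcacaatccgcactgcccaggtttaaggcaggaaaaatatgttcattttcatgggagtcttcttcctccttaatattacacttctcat
Vmn2r35: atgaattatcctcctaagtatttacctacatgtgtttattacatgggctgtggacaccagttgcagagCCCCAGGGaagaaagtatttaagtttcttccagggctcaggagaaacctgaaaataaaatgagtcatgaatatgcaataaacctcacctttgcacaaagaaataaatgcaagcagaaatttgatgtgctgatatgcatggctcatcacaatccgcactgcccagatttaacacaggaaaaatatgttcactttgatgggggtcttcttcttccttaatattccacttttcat

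The receptors with peaks sat in a few places. The 122 genes fall into 17 clusters when members less than 1 Mb apart are joined, and 5 of the clusters held every gene with a peak. The cluster of 24 genes from Vmn2r29 to Vmn2r52 on chromosome 7 held 19 of the 28, of which 4 had a peak in all 8 lists. The cluster of 9 genes from Vmn2r19 to Vmn2r27 on chromosome 6 held 3, all of them in 8 lists. On chromosome 3, 2 of the 7 family C genes from Vmn2r1 to Vmn2r7 had peaks, and on chromosome 17, 2 of the 8 genes from Vmn2r111 to Vmn2r117. Vmn2r55 and Vmn2r56, of the 4 genes from Vmn2r53 to Vmn2r56 on chromosome 7, made up the rest. No gene had a peak in any list among the 22 from Vmn2r90 to Vmn2r110 on chromosome 17, the 15 from Vmn2r65 to Vmn2r79 and the 8 from Vmn2r57 to Vmn2r126 on chromosome 7, or the 10 from Vmn2r8 to Vmn2r17 on chromosome 5.

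The plot of gene length under peaks shows how unevenly these genes were covered. Vmn2r6, Vmn2r21, Vmn2r39 and Vmn2r46 lay wholly under peaks in all 8 lists, and Vmn2r-ps130 wholly in 7 and to 84.4% in H3K27ac Vec replicate 1. Vmn2r40 was covered to 53.3% in H3K27ac Cre replicate 1, to 68.8% in EBF2 Vec replicate 2 and wholly in the other 6 lists. Vmn2r35 was covered to 29.2% and 14.9% in the EBF2 Vec lists, wholly in both EBF2 Cre lists, and in the H3K27ac lists wholly except in Cre replicate 1, at 33.9%. Vmn2r20 was never covered beyond 30.1%, and Vmn2r22 never beyond 40.1%. These 2 genes thus counted through their edges, and in EBF2 Vec replicate 2 and H3K27ac Cre replicate 2 through the 10 kb window alone for Vmn2r22.

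**Figure D1:**
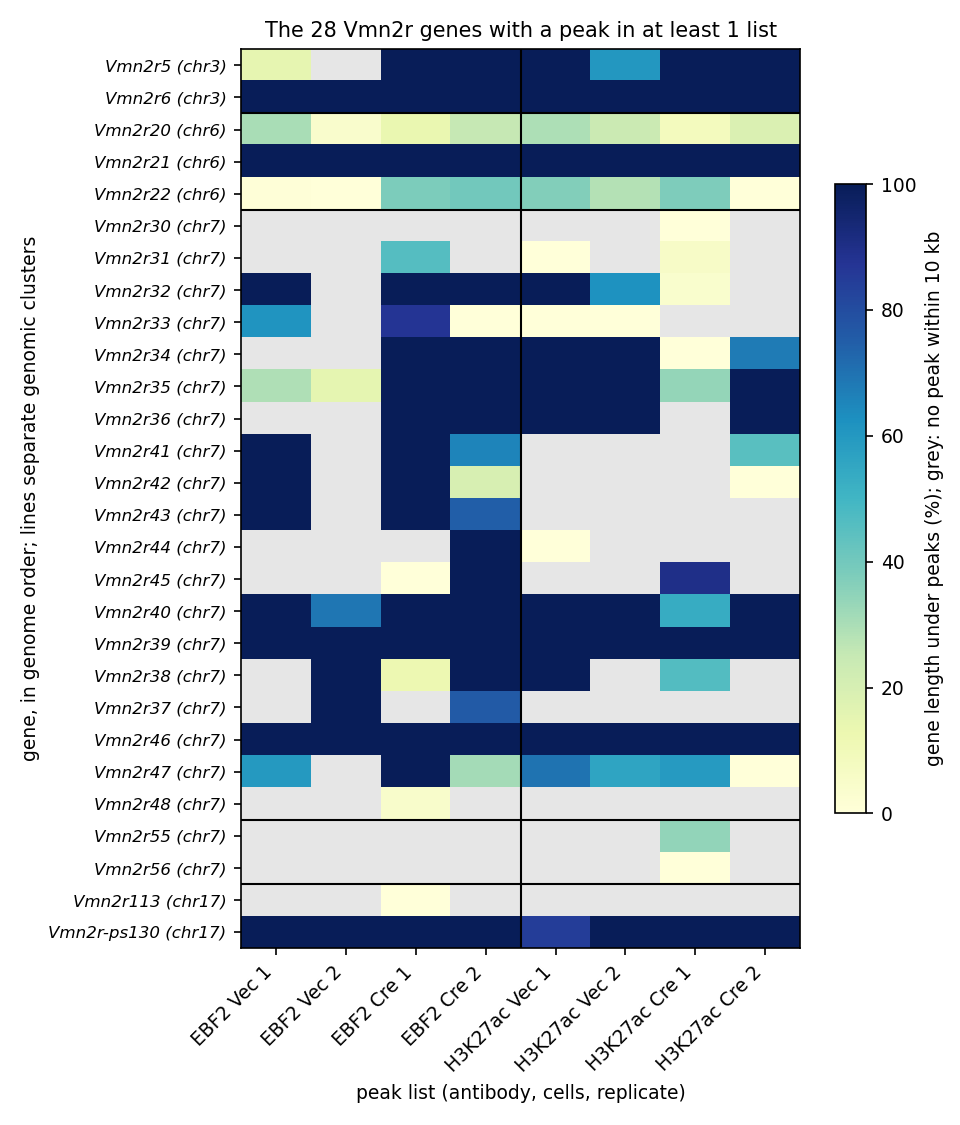
Percent of each gene's length under peaks (colour, 0 to 100%) for the 28 Vmn2r genes with a peak in at least 1 list (rows, in genome order) in each of the 8 lists (columns); grey marks no peak within 10 kb. Vmn2r6, Vmn2r21, Vmn2r39 and Vmn2r46 are fully covered in every list, while most genes of the chromosome 7 cluster change from list to list.

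Between these extremes, 19 genes had a peak in 1 to 7 lists, 15 of them in the cluster from Vmn2r29 to Vmn2r52. Vmn2r5, a family C receptor, and Vmn2r47 had a peak in 7 lists and lacked one only in EBF2 Vec replicate 2. Vmn2r5 was covered to 14.6% in EBF2 Vec replicate 1, to 60.3% in H3K27ac Vec replicate 2 and wholly in the other 5 lists with a peak. Vmn2r32 and Vmn2r34 had a peak in 6 lists, and Vmn2r33, Vmn2r36 and Vmn2r38 in 5. At the other end, Vmn2r30, Vmn2r48, Vmn2r55, Vmn2r56 and Vmn2r113 each had a peak in 1 list. Vmn2r55 and Vmn2r56 owed theirs to a single H3K27ac peak of 20.0 kb in Cre replicate 1 (chr7:12673561-12693571).

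Most of the covered sequence belonged to wide peaks. The widest peak at a Vmn2r gene was 632 kb, in EBF2 Vec replicate 2 (chr7:9173875-9805719), and held 3 protein-coding genes, Vmn2r37, Vmn2r46 and the predicted gene Gm10302. The widest in the other lists ran from 434 kb to 476 kb. At chromosome 6 a single peak spanned Vmn2r21 and reached into Vmn2r20 and toward Vmn2r22 in each list. It measured 202 and 183 kb in the EBF2 Vec lists, 212 and 216 kb in the EBF2 Cre lists, 216 and 211 kb in the H3K27ac Vec lists and 210 and 194 kb in the H3K27ac Cre lists. Its left end varied by 8.49 kb and its right end by 26.0 kb over the 8 lists, so the antibodies and the cells drew nearly the same block. On chromosome 3 each list held 1 peak at Vmn2r6, which was also within 10 kb of Vmn2r5 in every list but EBF2 Vec replicate 2. It measured 162 and 123 kb in EBF2 Vec, 190 and 184 kb in EBF2 Cre, 188 and 166 kb in H3K27ac Vec and 184 kb in each H3K27ac Cre list. On chromosome 17 the 1 peak at Vmn2r-ps130, which in EBF2 Cre replicate 1 also lay within 10 kb of Vmn2r113, measured 125 and 79.9 kb in EBF2 Vec, 151 and 109 kb in EBF2 Cre, 84.0 and 89.2 kb in H3K27ac Vec, and 94.3 and 119 kb in H3K27ac Cre. Apart from Gm10302, none of the places with peaks at Vmn2r genes held a protein-coding gene of another name.

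Narrow peaks (10 kb or less) were found inside or up to 10 kb from 15 members (12.3%, against 4.46% of all protein-coding genes), all in the cluster from Vmn2r30 to Vmn2r48. No member had one in all 8 lists, as 0.00486% of all genes did. Vmn2r35, Vmn2r41 and Vmn2r45 were among them. In the EBF2 Vec lists the only peak at Vmn2r35 was narrow, 9832 bp in replicate 1 (chr7:7799080-7808911) and 5034 bp in replicate 2 (chr7:7798265-7803298). The other narrow peaks had folds of 1.61 to 2.27 over the caller's background, among them the only peak near Vmn2r30, of 2537 bp in H3K27ac Cre replicate 1, at a fold of 1.88.

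The cluster on chromosome 7 varied most between lists. From Vmn2r30 to Vmn2r48, a stretch of 2.64 Mb with 19 members, peaks covered 44.0% and 33.8% in the EBF2 Vec lists and 62.3% and 73.7% in the EBF2 Cre lists. For H3K27ac the shares were 52.1% and 49.9% in Vec and 29.8% and 42.4% in Cre. Both EBF2 Cre lists thus lay above both EBF2 Vec lists, and both H3K27ac Cre lists below both H3K27ac Vec lists. The sequence covered by the whole lists had the same order, at 106.3 and 81.2 Mb in EBF2 Vec, 107.5 and 109.0 Mb in EBF2 Cre, 115.0 and 106.4 Mb in H3K27ac Vec and 103.9 and 104.1 Mb in H3K27ac Cre. Toward the right end of the stretch, Vmn2r46 lay under 1 wide peak in each list, while Vmn2r48 at the end itself had a peak in 1 list. The middle, at Vmn2r41 to Vmn2r45, was covered in some lists and bare in others.

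**Figure D2:**
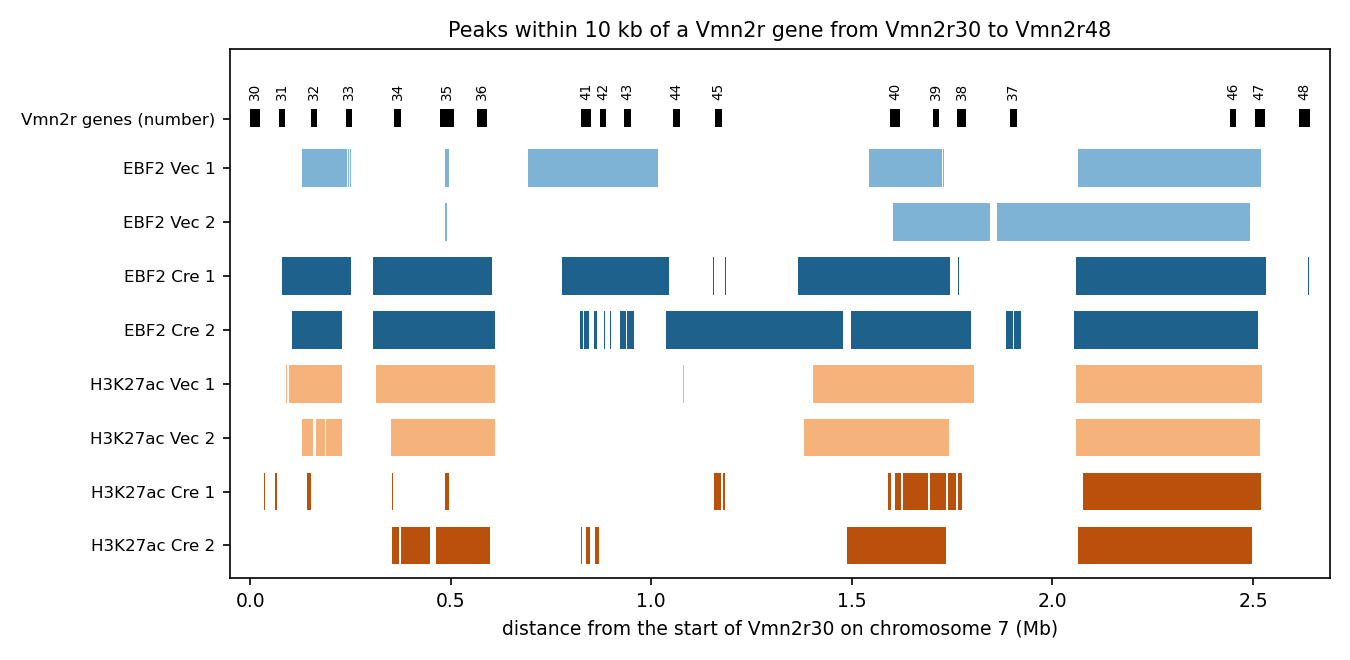
Peaks within 10 kb of a Vmn2r gene (bars) in each of the 8 lists (rows) along 2.64 Mb of chromosome 7, as distance in Mb from the start of Vmn2r30; black boxes mark the 19 genes, each with the number in its symbol. The block at Vmn2r46 recurs in every list, and the blocks at Vmn2r34 to Vmn2r36 are wide in both EBF2 Cre lists and narrow at Vmn2r35 alone in both EBF2 Vec lists.

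Whether loss of Cars2 moved EBF2 peaks at the receptors was asked by comparing Cre with Vec. A peak was present at 16 and 11 genes in the EBF2 Vec lists, against 4.06% and 3.1% of all genes, and at 23 and 22 genes in the EBF2 Cre lists, against 4.09% and 3.93% of all genes. As shares of the 122 members these were 13.1% and 9.02% in Vec and 18.9% and 18.0% in Cre. The groups did not overlap, and the mean was 13.5 ± 3.54 genes in Vec against 22.5 ± 0.707 genes in Cre (SD, n = 2 lists each), a difference of 9.0 genes (exact permutation test over libraries, two-sided, p = 0.333, the smallest that 2 against 2 allows). Gene length under EBF2 peaks was 8.00% and 5.54% in Vec and 11.6% and 11.8% in Cre, a difference of 4.97 points (exact permutation test, two-sided, p = 0.333). Over all protein-coding genes the share under EBF2 peaks was 1.13% and 0.900% in Vec and 1.17% and 1.18% in Cre, so that both Cre lists were above both Vec lists there too. The study reports the opposite direction, a decrease of global EBF2 binding in Cars2-knockout cells by Cut & Tag. It shows this as a heatmap and profile of binding, a measure unlike the gene length under listed peaks. Within the EBF2 lists of replicate 1, whose peak names carry genotype words, the members with a peak numbered 16 in Vec and 23 in Cre, and within replicate 2 they numbered 11 and 22. Off chromosome 7 gene length differed by 1.73 points, as a share of the length of the members there and not of all members. The gene counts there differed by 1.0 (5.5 ± 0.707 against 6.5 ± 0.707, SD, n = 2). With peaks of 10 kb or less gene length and gene counts differed by 0.107 points and 1.5 genes, so most of the difference came from wide peaks in the chromosome 7 cluster. The restriction to other chromosomes was chosen after seeing the data. Without EBF2 Vec replicate 2 the difference was 6.5 genes.

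Few single receptors separated the groups. Vmn2r34, Vmn2r36 and Vmn2r45 had an EBF2 peak in both Cre lists and in neither Vec list, 2.46% of the members, where 0.0973% of all genes showed that pattern (20 genes in all). Vmn2r34 and Vmn2r36 lay wholly under one peak in each Cre list, of 297 kb in replicate 1 and 306 kb in replicate 2, which they share with Vmn2r35, and so are not separate observations. In the Vec lists the nearest EBF2 peak to Vmn2r34 was 108 kb away in replicate 1 and 109 kb in replicate 2, and to Vmn2r36 67.7 kb and 73.4 kb. Vmn2r45 lay wholly under a wide peak in Cre replicate 2, but in Cre replicate 1 counted through narrow peaks of which the nearest was 2.16 kb from the gene. The reverse, both Vec lists but no Cre list, was shown by 0 members and by 0.0486% of all genes. The promoters of Vmn2r34 and Vmn2r45 are identical (printed above), and to which of the copies a read from such sequence belongs is uncertain.

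H3K27ac peaks at the receptors gave a different picture. They were present at 18 and 15 members in the Vec lists, against 5.82% and 4.56% of all genes, and at 19 and 15 members in the Cre lists, against 4.79% and 6.24% of all genes. As shares of the members these were 14.8%, 12.3%, 15.6% and 12.3%. The groups overlapped, at 16.5 ± 2.12 genes in Vec and 17.0 ± 2.83 in Cre (SD, n = 2), a difference of 0.5 genes (exact permutation test, two-sided, p = 1.0). The sign of this difference changed with the window, the score threshold, the libraries used and the addition of pseudogenes, between -4.5 and 2.5 genes. Gene length under H3K27ac peaks was 9.66% and 8.34% in Vec and 7.11% and 7.595% in Cre, a difference of -1.65 points with groups that did not overlap (exact permutation test, two-sided, p = 0.333). This difference was 0.207 with peaks of 10 kb or less, -2.98 with the stricter score and -0.993 without H3K27ac Vec replicate 1. Off chromosome 7 it was -0.248, as a share of the length of the members there. Over all genes it was 1.36% and 1.25% in Vec and 1.25% and 1.31% in Cre. Vmn2r33 was the only member whose H3K27ac peaks were in the 2 Vec lists but in no Cre list (0.165% of all genes), through peaks 9.90 kb and 9.30 kb away from it, just inside the window, and it lay under none. No member had the opposite pattern, seen in 0.107% of all genes. Vmn2r36 had an H3K27ac peak in both Vec lists and Cre replicate 2, and there the nearest peak in Cre replicate 1 was 67.7 kb away.

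**Figure D3:**
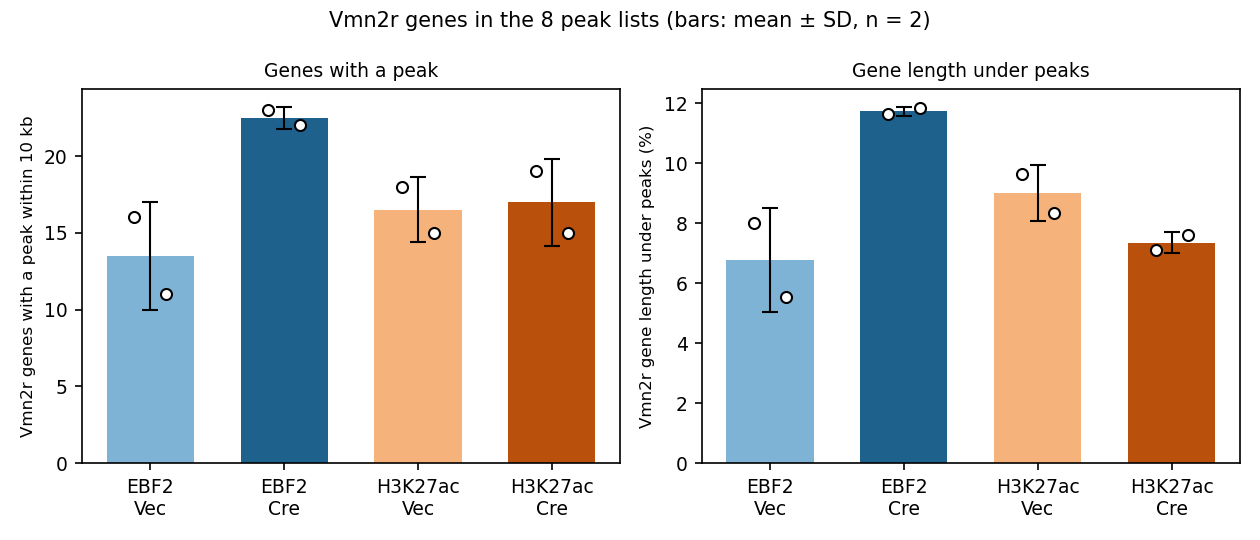
Left, number of Vmn2r genes (of 122) with a peak within 10 kb; right, percent of the summed Vmn2r gene length under peaks; bars are group means, error bars SD (n = 2 lists) and circles single lists. Both EBF2 Cre lists, at 23 and 22 genes, lie above both EBF2 Vec lists, at 16 and 11, while the H3K27ac groups overlap in gene number.

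The height of the peaks was compared at the places with a peak in all 8 lists, 6 of which touch Vmn2r genes. Fold over the caller's background is given as the highest peak in the place, and is a summit value in EBF2 lists and a mean over the peak in H3K27ac lists, so the antibodies are not set against each other. In the place that holds Vmn2r37, Vmn2r46 and Vmn2r47 the EBF2 fold was 15.4 and 10.47 in Vec and 22.6 and 21.5 in Cre. The 10.47, in Vec replicate 2, is from a peak at Vmn2r37 and Vmn2r46 that was not within 10 kb of Vmn2r47. In the other EBF2 lists the highest peak was at Vmn2r46 and Vmn2r47. The EBF2 fold was 14.0 and 12.6 in Vec and 17.2 and 16.4 in Cre at Vmn2r20 to Vmn2r22. Vmn2r-ps130 had folds of 5.85 and 6.28 in Vec and 7.45 and 7.38 in Cre. In the place that holds Vmn2r34 to Vmn2r36 the folds were 3.70 and 3.45 in Vec and 4.16 and 4.61 in Cre. The Vec values there are from peaks at Vmn2r35 alone, and the Cre values from wide peaks over all of these genes. At these 4 of 6 places both Cre lists were above both Vec lists, where 29.1% of the 117 autosomal places with a peak in all 8 lists did so. At the remaining 2 the groups overlapped. These hold Vmn2r5 and Vmn2r6 (5.25 and 3.77 in Vec, 6.59 and 4.92 in Cre) and Vmn2r38 to Vmn2r45. The 3.77, in Vec replicate 2, is from a peak at Vmn2r6 that was not within 10 kb of Vmn2r5. None of the 6 places had lower EBF2 folds in both Cre lists, seen at 17.9% of all places.

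For H3K27ac, 3 of the 6 places had lower folds in both Cre lists, against 23.1% of all places, and none had higher ones, against 21.4%. The fold at Vmn2r20 to Vmn2r22 was 7.77 and 7.69 in Vec and 5.30 and 5.81 in Cre. At Vmn2r5 and Vmn2r6 it was 3.55 and 3.95 in Vec and 3.24 and 3.25 in Cre, and at Vmn2r-ps130 3.19 and 3.40 in Vec and 2.97 and 3.18 in Cre. The last 2 sets lie close together, and at Vmn2r46 and Vmn2r47 the groups overlapped at 8.08 and 6.95 in Vec and 7.90 and 7.45 in Cre. With 2 lists a group no test of a single place could pass the threshold, and the places were not tested.

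EBF2 lists held 18.0 ± 5.60 receptors with a peak and H3K27ac lists 16.8 ± 2.06 (SD, n = 4). Over all genes the share with a peak was 3.1% to 4.09% in the EBF2 lists and 4.56% to 6.24% in the H3K27ac lists, so that every H3K27ac list was above every EBF2 list there. The difference of 1.25 genes did not hold up against the spread between lists (exact permutation test, two-sided, p = 0.743). It turned to -0.417 without EBF2 Cre replicate 1 and to -0.0833 without EBF2 Cre replicate 2, and rose to 5.75 with the stricter score (exact permutation test, two-sided, p = 0.0857). The antibody cannot be told apart from the layout of its lists, which are narrow peaks for EBF2 and broad peaks for H3K27ac.

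Compared with other chemoreceptor families, the Vmn2r genes took a middle place. Vmn1r genes, the vomeronasal receptors of the apical neuron layer, had a peak within 10 kb at 24.5% to 31.0% of 229 genes in the 8 lists, and Olfr genes, the olfactory receptors of the main nose, at 0.181% to 0.544% of 1103 genes. The Vmn2r share ran from 9.02% to 18.9%. It was lower than the Vmn1r share in 8 of 8 lists, with a mean difference of -15.0 ± 2.08 points (SD, n = 8 lists, exact sign-flip test, two-sided, p = 0.00781), and higher than the Olfr share in 8 of 8 lists, with a mean difference of 13.9 ± 3.30 points (SD, n = 8 lists, exact sign-flip test, two-sided, p = 0.00781). The p-value is the smallest that 8 lists allow, and the lists share cells and gene annotation. With peaks of 10 kb or less alone the order against Vmn1r turned, and the Vmn2r share was then higher by 1.46 points (exact sign-flip test, two-sided, p = 0.0156).

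**Figure D4:**
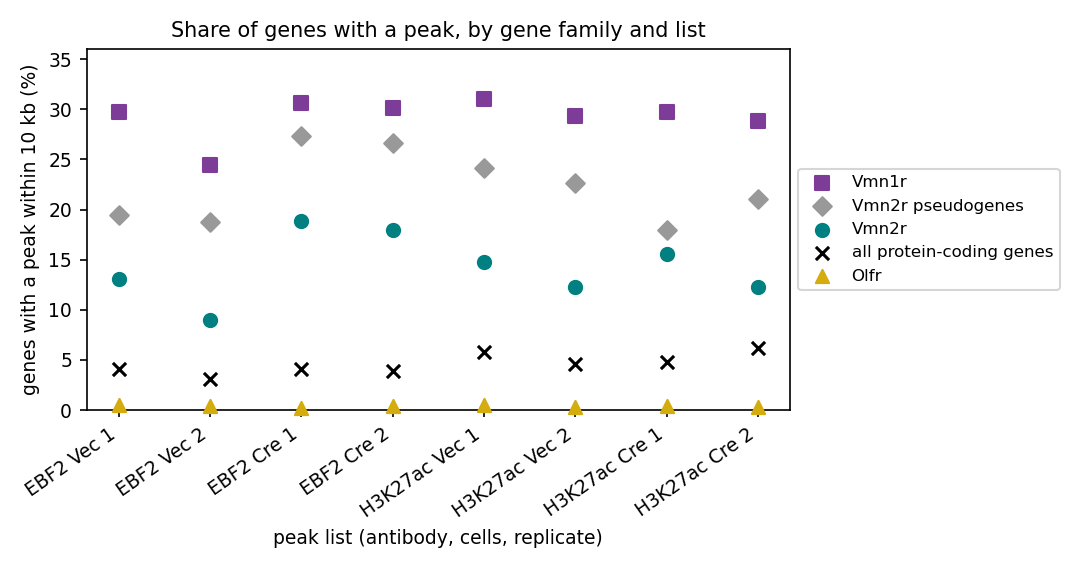
Percent of genes with a peak within 10 kb (vertical axis) in each of the 8 lists (horizontal axis) for Vmn1r genes, Vmn2r pseudogenes, Vmn2r genes, all protein-coding genes and Olfr genes. The Vmn2r points, between 9.02% and 18.9%, lie below the Vmn1r points and above the Olfr points in every list.

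Genes that act with the receptors were looked up in the same way. Of 30 placed genes of vomeronasal signalling, which include Trpc2, Gnao1, the H2-M10 genes expressed beside V2Rs, and the peptide pheromone gene Esp1, 0 had a peak within 10 kb in any list, where 7.76% of all genes had one in at least 1. Vmn2r116, the receptor for the peptide Esp1, also lacked a peak, with the nearest in any list 242 kb away. For Vmn2r26, a receptor that detects MHC-binding peptides, this distance was 353 kb.

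Among the 94 receptors without a peak, the distance to the nearest one in any list had a median of 649 kb and reached 5165 kb at Vmn2r65. Beyond 1 Mb lay 33 of them and within 50 kb 6. The nearest were Vmn2r29 (20.2 kb), Vmn2r7 (21.4 kb), Vmn2r49 (25.3 kb), Vmn2r87 (26.5 kb) and Vmn2r18 (34.9 kb). Vmn2r66 to Vmn2r69, next to Vmn2r65, made up the farthest 5 with it. Gene length was of the same order in all classes, with a median of 25.3 kb for genes with no list, 18.1 kb for 1 to 7 lists and 27.9 kb for 8 lists.

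How alike a receptor's promoter is to its closest relative was set beside these classes. The share of identical bases with the most similar other Vmn2r promoter had a median of 89.5% (from 49.6% up to full identity) over 92 genes with no list, 97.7% (from 79.6% up to full identity) over 17 genes with 1 to 7 lists and 96.7% (96.0% to 99.7%) over 7 genes with 8 lists. At least 95% identity was reached by 18 of 92, 12 of 17 and 7 of 7. The least similar promoters, of Vmn2r29, Vmn2r3, Vmn2r18, Vmn2r94 and Vmn2r1, at 49.6% to 55.8%, all belong to genes without a peak. A close copy did not go with a peak in every case: Vmn2r7 is 99.3% identical to Vmn2r6 and had none, and Vmn2r62 and Vmn2r126, with identical promoters, had none. These are descriptions across genes of shared clusters, which are not independent, and the part of sequence identity in the result was not tested. How the aligner placed reads that match more than 1 copy is not given in the sources used here.

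**Figure D5:**
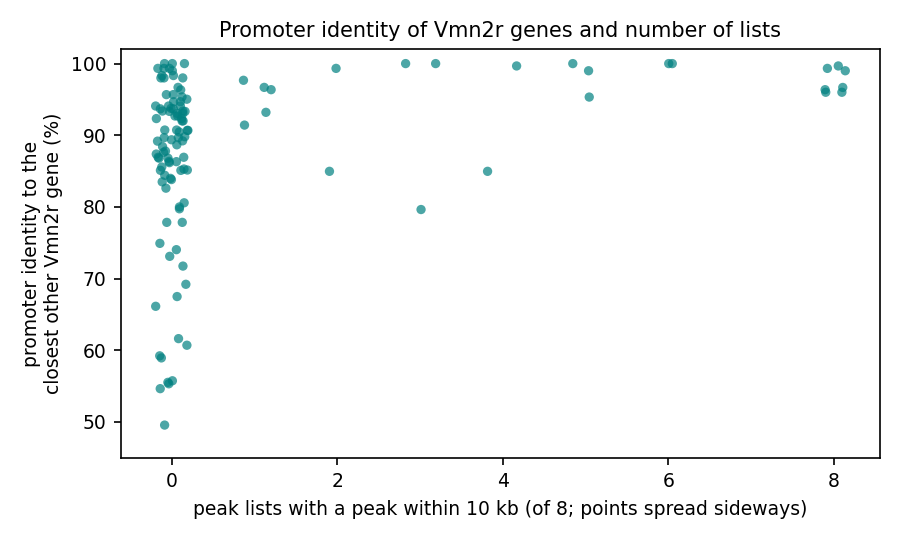
Percent identity of each Vmn2r promoter with its closest other Vmn2r promoter (vertical axis) against the number of lists with a peak within 10 kb of the gene (horizontal axis, points spread sideways), for 116 genes. All 20 promoters under 80% identity but 1 belong to genes with no list, and the 7 genes with 8 lists lie at 96.0% or above.

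Peaks reached promoters as whole blocks. A promoter window of 300 bases lay wholly under peaks or wholly outside in every list: 9 and 7 of 116 in the EBF2 Vec lists, 13 and 14 in the EBF2 Cre lists, 10 and 9 in the H3K27ac Vec lists and 6 and 8 in the H3K27ac Cre lists were wholly under peaks. For EBF2 these were 7.76% and 6.03% of the member promoters in Vec and 11.2% and 12.1% in Cre, against 3.28% and 2.58% of all 16457 promoters in Vec and 3.42% and 3.34% in Cre, where both Cre lists were above both Vec lists as well. For H3K27ac they were 8.62% and 7.76% in Vec and 5.17% and 6.90% in Cre, against 4.42% and 3.71% of all promoters in Vec and 3.71% and 4.54% in Cre. Vmn2r6, Vmn2r20, Vmn2r39, Vmn2r40 and Vmn2r-ps130 had theirs under peaks in all 8 lists. Those of Vmn2r34, Vmn2r35 and Vmn2r36 lay under peaks in 5 lists, in both EBF2 Cre lists and in neither EBF2 Vec list.

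The letters TCCCNNGGGA, the core known for EBF proteins, stood in 0 of 116 Vmn2r promoters, against 0.966% of 16457 autosomal protein-coding promoters of the same length. Its shorter form CCCNNGGGA, searched on both strands, stood in 17 (14.7%), against 7.29% of all, and CCCNNGGG, which reads alike on both strands and includes all of the former, in 22 (19.0%), against 15.7% of all. Of these promoters, 17 were among the 22 found for the chromosome 7 cluster from Vmn2r29 to Vmn2r52, where copies share it, as printed for Vmn2r34, Vmn2r32 and Vmn2r35. It stood in 13 of 24 promoters of genes with a peak in at least 1 list (54.2%) and in 9 of 92 of genes with none (9.78%). All 13 lie in that cluster, where Vmn2r49 to Vmn2r52 carry the letters without a peak. Vmn2r31, Vmn2r33, Vmn2r38 and Vmn2r44 had peaks there without the letters. Outside the cluster only genes with no peak carry them (Vmn2r28, Vmn2r78, Vmn2r79, Vmn2r89 and Vmn2r108). The part of the cluster in these shares was not tested. Vmn2r32 and Vmn2r49 carry the letters in the same sequence, with a peak in 6 lists and in 0. Vmn2r6, Vmn2r20, Vmn2r22 and Vmn2r-ps130, with 8 lists each, do not hold them in this window.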

How the data were processed

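Cut & Tag libraries (50000 cells each, per the labels) gave 1 peak list each. Per the submitters' processing notes the reads went through bcl2fastq 2.17, Trimmomatic 0.33, HISAT2 2.2.1 and MACS2 2.2.7 on mm10, library by library. Caller settings, duplicate handling and any control were not given in the sources used here. The deposited values are a score, which the authors' caller sets to 10 times −log10 q, a fold (ratio) over the caller's background, and −log10 p and q. Score and fold were used, and no read counts are given, so depth and its precision are unknown. Groups came from the sample titles. The names of peaks inside 2 EBF2 lists carry genotype words of their own, which were not used. Names and coordinates came from the GRCm38.p6 gene table, promoters from RefSeq.

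Genes within 10 kb of a peak were found in Python 3.11.15 (numpy 2.4.6, pandas 2.3.3, scipy 1.17.1), tested on simulated peaks (111 of 111 hits found, 0 in error). Counts were compared by exact permutation over libraries, shares between families by exact sign-flip over lists, at a threshold of 0.05. Promoter identity is from global alignment (Biopython 1.88, match 1, mismatch -1, gap open -2, gap extension -0.5) and replaced the planned protein identity, since no protein table was used here. The lists carry no read counts, so no count model was fitted. Alternatives were windows of 0 and 50 kb, 50% of a gene under peaks, a stricter score, peaks of 10 kb or less, equal list lengths, pseudogenes added, each library left out and a replicate block. Vmn2r122 was left out for want of a place.

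The members and gene lists were chosen with earlier results of these data known. Genes were named by rule: those that separate Cre from Vec, those in 8 lists, those in 1 to 7 lists by number of lists, those with narrow peaks, the nearest and farthest without a peak, the most and least alike promoters and the ends of clusters. Vmn2r26 and Vmn2r116 were named for their known ligands, and the other genes with a peak, or at the ends of a named block, after their values were seen. The result for 1 further gene list is not reported here.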

Additional observations from a re-analysis of the deposited data

Results flagged for a closer look

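The share of Vmn2r gene length under peaks moved in opposite directions for the antibodies. Both EBF2 Cre lists (11.6% and 11.8%) lay above both EBF2 Vec lists (8.00% and 5.54%), and both H3K27ac Cre lists (7.11% and 7.595%) below both H3K27ac Vec lists (9.66% and 8.34%). The Cre minus Vec difference was thus 6.62 points larger for EBF2 than for H3K27ac (exact permutation of Vec and Cre within each antibody, two-sided, p = 0.0556, the smallest that its 36 arrangements allow). It was drawn out because every list of one antibody went one way and every list of the other the opposite way, an ordering that already fixes this p, which is therefore no further evidence. The same ordering holds for the sequence covered by the whole lists, at 106.3 and 81.2 Mb in EBF2 Vec, 107.5 and 109.0 Mb in EBF2 Cre, 115.0 and 106.4 Mb in H3K27ac Vec and 103.9 and 104.1 Mb in H3K27ac Cre. Gene length over all protein-coding genes kept this order for EBF2, at 1.13% and 0.900% in Vec and 1.17% and 1.18% in Cre. For H3K27ac the groups overlapped there, at 1.359% and 1.246% in Vec and 1.245% and 1.311% in Cre. The part of the covered sequence in the result was not tested. For the number of genes with a peak the same difference was 8.5 genes (exact permutation, two-sided, p = 0.278). Without EBF2 Vec replicate 2, the list with the fewest peaks, the EBF2 difference was 3.74 points, against 4.97 with it.

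Vmn2r pseudogenes on chromosome Y are outside the autosomal comparisons. Of 17 such pseudogenes, 13 had a peak within 10 kb in at least 1 list and 9 in all 8 lists, with no control list among the 8 to compare with. Most of the 9 lie in pairs less than 10 kb apart, such as Vmn2r-ps143 with Vmn2r-ps144 and Vmn2r-ps150 with Vmn2r-ps151. The members of a pair are thus not separate observations, and no share over all chromosome Y genes is given here. The 1 Vmn2r gene on chromosome X had no peak. Dixon's test found no outlying list in 6 sets, the gene counts and the gene length shares over the 4 lists of each antibody and the differences from Vmn1r and Olfr over 8 lists. The number of peaks and the covered sequence, by which EBF2 Vec replicate 2 stood apart, were not among them.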

How the results depend on the processing

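Of 109 values under alternative settings, 91 were classed as the same. For a difference this means that it kept its direction and its side of the threshold. The number of genes with a peak in every list used has neither, and ran from 6 to 11 in the settings so classed. No Cre minus Vec or antibody difference passed the threshold under any setting run. The Cre minus Vec differences could not pass it with 2 lists a group. The difference in genes with an H3K27ac peak (Cre minus Vec, 0.5) became -0.5 when the peak had to overlap the gene, -3.0 when 50% of the gene had to be covered, -3.5 with the stricter score, -4.5 with pseudogenes added, 0.0 with a 50 kb window and 0.0 off chromosome 7, the last chosen after seeing the data. H3K27ac gene length turned from -1.65 to 0.207 points with peaks of 10 kb or less. The antibody difference was 0.0 genes with 50 kb and 0.0 off chromosome 7. Genes with a peak in all 8 lists numbered 14 with 50 kb, 0 with peaks of 10 kb or less, 28 with pseudogenes and 5 off chromosome 7. The Vmn2r minus Vmn1r share became 1.46 points with peaks of 10 kb or less. For these shifts the cause was not tested, beyond the change of genes or peaks that each setting makes.

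Leaving out 1 library at a time gave EBF2 differences of 6.5 to 11.5 genes and 3.74 to 6.19 points. H3K27ac differences were -1.5 to 2.5 genes and -2.31 to -0.993 points, and antibody differences -0.417 to 3.58 genes. Genes with a peak in all of the remaining lists numbered 9 to 11. Shares were -15.4 to -14.7 points against Vmn1r and 13.2 to 14.6 against Olfr. With 1 list left in a group, the exact test compares it with both of the other group.

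With the replicate number as a block the EBF2 difference was 9.0 genes (exact sign-flip test over 2 pairs, p = 0.5). A block cannot change a mean difference, and 2 pairs cannot pass the threshold. The numbers share no stated batch, and deviations of same-numbered libraries correlated at 0.126 for EBF2 and -0.155 for H3K27ac over 20560 genes. Crossing the H3K27ac numbers, chosen after seeing the data, re-pairs the same lists and gave 0 calls, as it must. Depth is unknown, so a gene without a peak cannot be called unbound.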

Other observations

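Autosomal Vmn2r pseudogenes, some of them on chromosomes without a placed Vmn2r gene, had peaks at a higher share than the genes themselves. Of 128, 40 had a peak within 10 kb in at least 1 list and 19 in all 8. Over all protein-coding genes these shares were 7.76% and 2.88%. No share over all autosomal pseudogenes is given here, so whether these counts, and those by chromosome below, are particular to Vmn2r pseudogenes is unknown. The share of Vmn2r genes with a peak was below that of the pseudogenes in 8 of 8 lists, with a mean difference of -8.02 ± 2.56 points (SD, n = 8 lists, exact sign-flip test, two-sided, p = 0.00781, the smallest that 8 lists allow). This comparison was not among the planned ones. The lists share cells and gene annotation, and some wide blocks that recur over them touch genes and pseudogenes alike, such as Vmn2r6 and Vmn2r-ps9. On chromosome 13, where no protein-coding Vmn2r gene is placed, 11 of 14 pseudogenes had a peak and 7 had one in all 8 lists. On chromosome 4, 4 of 7 had a peak in all 8 lists, where the 1 placed Vmn2r gene, Vmn2r129, had none. Chromosome 7 held more pseudogenes than any other, and there 15 of 53 had a peak, 2 of them in all 8 lists.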
